A study of Mus musculus with 23 samples.

Results

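Villus cells of the newborn mouse small intestine were compared with villus cells taken 10 days later, during suckling. The 6 libraries are the 3 P0 villus and 3 P10 villus libraries, all those that the labels give for this population at postnatal day 0 and postnatal day 10, of 23 libraries in the series. Each holds RNA of epithelium from CD1 mice, an outbred stock, taken from the middle of the small intestine and sorted by flow cytometry for the epithelial surface protein Epcam and for absence of CD44. CD44 is a surface protein that is abundant in intestinal crypts, so the labels call the CD44-negative fraction villus and the CD44-positive fraction crypt. The mice carried no allele and received no treatment named in the labels, and the labels do not say whether a library is 1 animal or a pool. The p-values therefore measure only a spread between libraries, which may be technical. That spread was estimated in a fit of all 23 libraries, not of the 6 villus libraries alone. The 3 P0 crypt and 3 P10 crypt libraries are used for comparison.

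The small intestine is lined by absorptive enterocytes, together with mucus-secreting goblet cells, hormone-secreting enteroendocrine cells and tuft cells. At birth the villi are already covered by enterocytes that digest and absorb milk, while the crypts, with their Wnt-dependent Lgr5-positive stem cells and antimicrobial Paneth cells, form over the following weeks. During the same period the gut is colonised by microbes, and the tissue leaves the low-oxygen, placentally fed state of the fetus.

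The 6 libraries held 24437124 to 34075619 reads counted in genes, and 19939 to 21668 genes had at least 1 read. Mean transcript GC content, weighted by counts, was 49.5% ± 0.17 at P0 and 49.6% ± 0.057 at P10 (SD, n = 3 each). Mitochondrially encoded genes took 5.14%, 10.7% and 11.7% of the counts in P0 villus 1, 2 and 3, and 5.18%, 3.61% and 3.98% in P10 villus 1, 2 and 3. P0 villus 1 stood apart from the other P0 libraries. Across genes, its log2 levels correlated with those of P0 villus 2 and 3 at Pearson's r = 0.960 and 0.966, and with those of the 3 P10 libraries at 0.967 to 0.974; genes are not independent replicates. On the first principal component, with 55.5% of the variance, it lay at -3.82, between the other P0 libraries (-80.6 and -68.4) and the P10 libraries (41.7 to 59.7). The tests were therefore repeated without P0 villus 1. That repeat is given below for most gene lists and for some single genes, not for every gene.

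Of 16535 genes tested with edgeR's quasi-likelihood method, 1742 (10.5%) were higher and 1816 (11%) were lower at P10 at an adjusted p under 0.05, a threshold used throughout for a call. Without P0 villus 1, 3330 of 16508 genes (20.2%) were higher and 2681 (16.2%) lower, and 3348 of the 3558 genes called with all libraries were called again in the same direction. Counts in the gene lists below are to be read beside these shares of all genes. The shares are 10.5% higher and 11% lower with all libraries, and 20.2% and 16.2% without P0 villus 1. Leaving out P0 villus 2, P0 villus 3 or P10 villus 2 lowered the total to 1968, 1883 and 1771 genes. Of these, 957, 887 and 902 were higher and 1011, 996 and 869 lower. Without P10 villus 1 or P10 villus 3 the total was 2618 and 2424. A fit of the 6 villus libraries alone called 828 of 14423 genes, 473 higher and 355 lower. List counts from these fits are to be read beside these smaller totals. Scaling by library size alone, without TMM factors, moved the median log2 change of all genes from -0.01 to 0.20 and the share of calls that were higher from 49% to 78.8%. Changes are given on the log2 scale as P10 minus P0, with TMM scaling, and levels in CPM, the reads of a gene scaled to the library's total times its TMM factor.

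**Figure D1:**
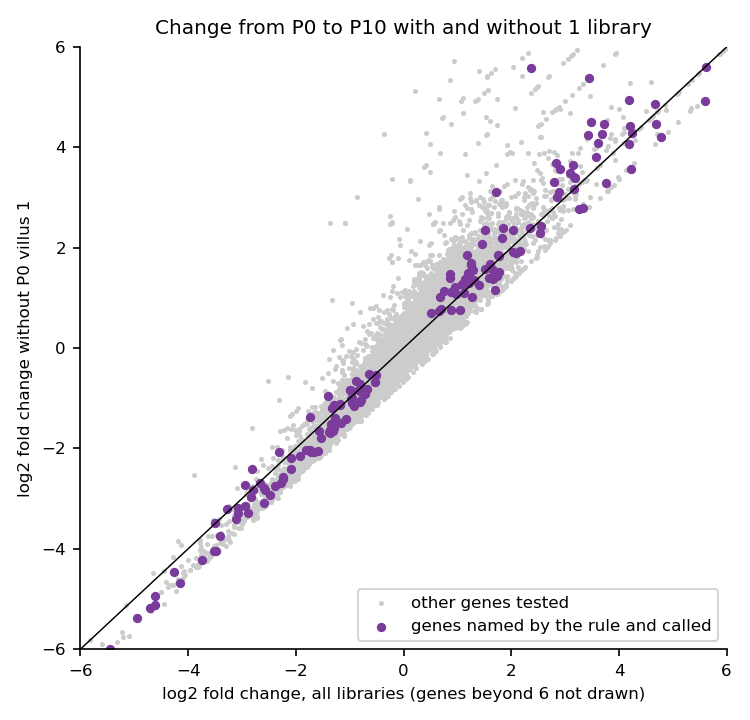
The log2 fold change from P0 to P10 with all libraries (x axis) is plotted against that without P0 villus 1 (y axis), for genes tested in both fits whose values lie within 6 log2 units. Purple points are genes chosen by the naming rule and called, grey points are other genes, and the line marks equality. Of the 161 named genes that were called, 149 were also called without P0 villus 1.

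Transcripts of crypt stem cells were higher in the P10 villus fraction. Of 24 stem cell genes tested, 20 rose and 0 fell, with a median log2 change of 1.28 beside -0.01 for all genes tested. Without P0 villus 1, 23 rose and the median was 1.63, and 15 rose in a fit of the 6 villus libraries alone. Olfm4, a secreted glycoprotein of crypt base cells, measured 230.9, 67.0 and 85.2 CPM in P0 villus 1 to 3 and 1643, 2105 and 1281 CPM in P10 villus 1 to 3. The groups did not overlap, and P0 villus 1 had the highest level of the P0 libraries. The naming rule required such a gap of the 15 largest called changes each way. For those genes, here and below, the gap is therefore no added support. The log2 change of Olfm4 was 3.71 ± 0.43 (SE; edgeR adjusted p = 1.50e-05), and 4.46 without P0 villus 1. Lgr5, the R-spondin receptor that marks the cycling stem cells, rose from 16.4, 10.5 and 6.40 CPM to 101.8, 100.6 and 83.8 CPM (log2 change 3.10 ± 0.35, edgeR adjusted p = 1.18e-05). The P10 libraries were close to each other and all at least 5 times as high as the highest P0 library. Hopx, a marker of a slowly cycling population, was among the 4 stem cell genes not called, with a log2 change of -0.07.

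Wnt target genes moved in the same direction: 16 of 20 rose and 0 fell, with a median of 1.71, and 17 rose without P0 villus 1. Several members are in the stem cell list too, so these counts are not independent. Axin2, a negative-feedback component of the pathway, was at 30.2, 11.8 and 14.6 CPM at P0 and at 140.7, 147.3 and 104.3 CPM at P10 (log2 change 2.79 ± 0.29). Notum, a secreted enzyme that inactivates Wnt ligands, rose by 3.69 ± 0.60, from at most 1.23 CPM at P0 to between 5.32 and 12.8 CPM at P10. Sp5, a transcription factor induced by Wnt, rose by 3.48 ± 0.56. The receptor Tnfrsf19 rose by 5.59 ± 0.73, from 0, 0.128 and 0.0408 CPM to 3.73, 2.73 and 1.47 CPM. The edgeR adjusted p-values of these 4 genes lay between 5.04e-06 and 0.000473. In all 4 the P10 libraries were above every P0 library. Ccnd1, a cyclin that drives entry into the cell cycle, was not called at 0.44 ± 0.23.

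Among cell cycle genes the changes were smaller. Of 49 tested, 19 rose and 1 fell, with a median of 0.46, and without P0 villus 1 27 rose. The count of higher members was 8 without P0 villus 2, 10 without P10 villus 2 and 3 in a fit of the 6 villus libraries alone. Mki67, a nuclear protein of cycling cells, went from 153.8, 130.7 and 99.99 CPM to 327.3, 319.2 and 182.3 CPM (1.11 ± 0.25, edgeR adjusted p = 0.00429). Its lowest P10 value was above its highest P0 value. Aspm, which acts at the poles of the mitotic spindle, rose by 1.47 ± 0.30, and Cenpf, a kinetochore protein, by 1.21 ± 0.23. Cdk4 and Mcm6, cell cycle genes with high levels in these libraries, were not called (-0.30 ± 0.17 and 0.08 ± 0.14).

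The transcript of the sorting marker itself rose. Cd44 was at 10.6, 2.60 and 6.44 CPM in the P0 villus libraries and at 22.1, 24.3 and 24.7 CPM at P10, a log2 change of 1.84 ± 0.37 (edgeR adjusted p = 0.00195) and 2.39 without P0 villus 1. In the CD44-positive fraction it was at 42.8 ± 10.8 CPM at P0 and 71.7 ± 8.19 CPM at P10 (SD, n = 3 each). Thus at each age the villus libraries were lower than the crypt libraries, and the P10 villus level was below the lowest P0 crypt library, at 32.4 CPM. Olfm4 stood at 801 ± 132 CPM in P0 crypt and 4539 ± 938 CPM in P10 crypt, and Lgr5 at 72.7 ± 31.8 and 257 ± 19.4 CPM. More cells of a type and more RNA per cell cannot be told apart in these bulk libraries. Whether crypt cells within the CD44-negative gate had a part in the stem, Wnt and cell cycle changes was not tested.

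**Figure D2:**
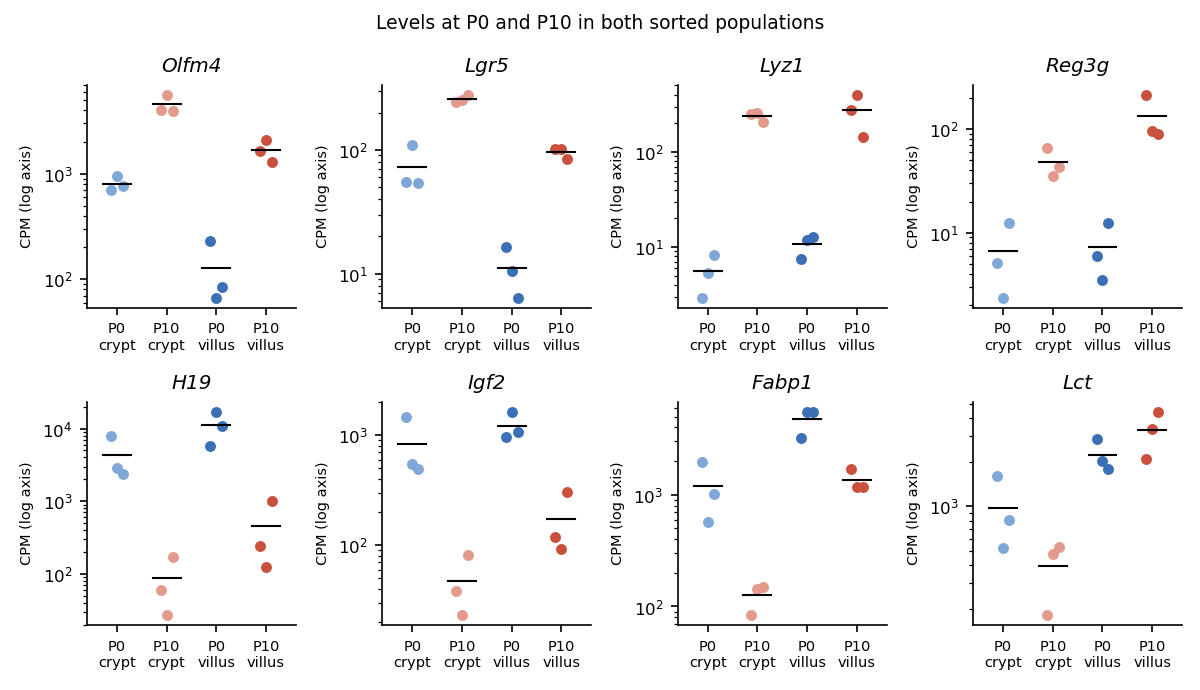
CPM on log axes of 8 genes in the 3 libraries of each of P0 crypt, P10 crypt, P0 villus and P10 villus; points are libraries and bars are means. Olfm4, Lgr5, Lyz1 and Reg3g were higher at P10 than at P0 in every library of the villus fraction, H19, Igf2 and Fabp1 were lower, and Lct overlapped.

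Paneth cell genes were also higher at P10. Of 14 tested, 9 rose and 0 fell, with a median of 1.43, and 7 rose without P0 villus 1 (median 0.89). The count was 5 without P10 villus 2 and 4 in a fit of the 6 villus libraries alone. Lyz1, the Paneth cell lysozyme, showed the largest rise among the genes of the naming rule's leading group: 7.41, 11.96 and 12.8 CPM at P0 against 278.8, 400.5 and 144.8 CPM at P10. The groups were separated by more than 10-fold. Its log2 change was 4.68 ± 0.47 (edgeR adjusted p = 3.56e-06), and 4.47 without P0 villus 1. The defensin transcripts Gm15284 (3.26 ± 0.54) and Defa22 (3.75 ± 0.52) rose as well, and P0 villus 1 was the lowest P0 library for each. Alpha-defensin genes are near-identical copies, so reads may be split or lost between them and the single-gene values are uncertain. Pla2g2a, a secreted phospholipase of Paneth cells, had 3 reads in all P0 villus libraries and 4386 at P10, a ratio of 1175 with an exact binomial 95% interval of 401.7 to 5699 that covers counting error only. The P10 libraries differed widely for it, at 120.9, 9.67 and 4.31 CPM. The pentraxin Mptx2, abundant at both ages, was not called (0.19 ± 0.46).

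Goblet cell genes moved less uniformly. Of 21 tested, 9 rose and 0 fell, while without P0 villus 1, 7 rose and 3 fell. A fit of the 6 villus libraries alone called 2. Muc2, the gel-forming mucin, measured 109, 175.6 and 175.3 CPM at P0 and 388.8, 486.1 and 502.5 CPM at P10 (1.58 ± 0.27, edgeR adjusted p = 0.000733). Fcgbp, a mucus protein bound to Muc2, rose by 1.40 ± 0.28, and Atoh1, the transcription factor that specifies secretory cells, by 1.74 ± 0.35. For each of these 3 genes the P10 libraries lay above every P0 library. Tff3, a goblet cell trefoil peptide, was at 340.9, 1347 and 1387 CPM at P0 and 695.1, 599.6 and 648.9 CPM at P10, so the groups overlapped only through P0 villus 1. It was not called (-0.66 ± 0.39) with all libraries and fell by 1.08 without P0 villus 1 (edgeR adjusted p = 0.00996).

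Enteroendocrine genes showed 2 falls (6.9%) and no rise among 29 tested, beside 11% and 10.5% of all genes, with a median of -0.43. Without P0 villus 1, 6 fell, beside 16.2% of all genes. The summed level of the list was 554 CPM in P0 villus 1, 1999 and 2250 CPM in P0 villus 2 and 3, and 1009 to 1356 CPM at P10, so P0 villus 1 lay below every P10 library. Ghrl, which encodes the appetite hormone ghrelin, was at 17.0, 132.6 and 202.6 CPM at P0 and 12.3, 2.62 and 4.75 CPM at P10. The groups did not overlap, although P0 villus 1 was far below the other P0 libraries. Its log2 change was -4.16 ± 0.87 (edgeR adjusted p = 0.00313). Sct, the hormone secretin, fell by 2.60 ± 0.58, but its P0 villus 1 value of 38.8 CPM lay within the P10 range of 27.1 to 42.1 CPM. The pan-endocrine granin Chga, with log2 change -0.03 ± 0.44, and the hormone Gip, with 0.25 ± 0.59, were not called. Tuft cell genes were near the detection limit: the 15 genes summed to 1.29 to 1.70 CPM at P0 and 2.54 to 3.08 CPM at P10. Of 7 tested, 3 rose (2 without P0 villus 1, and 1 without P0 villus 3 or without P10 villus 3), among them Pou2f3, the tuft cell transcription factor, with 1 read at P0 and 46 at P10.

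**Figure D3:**
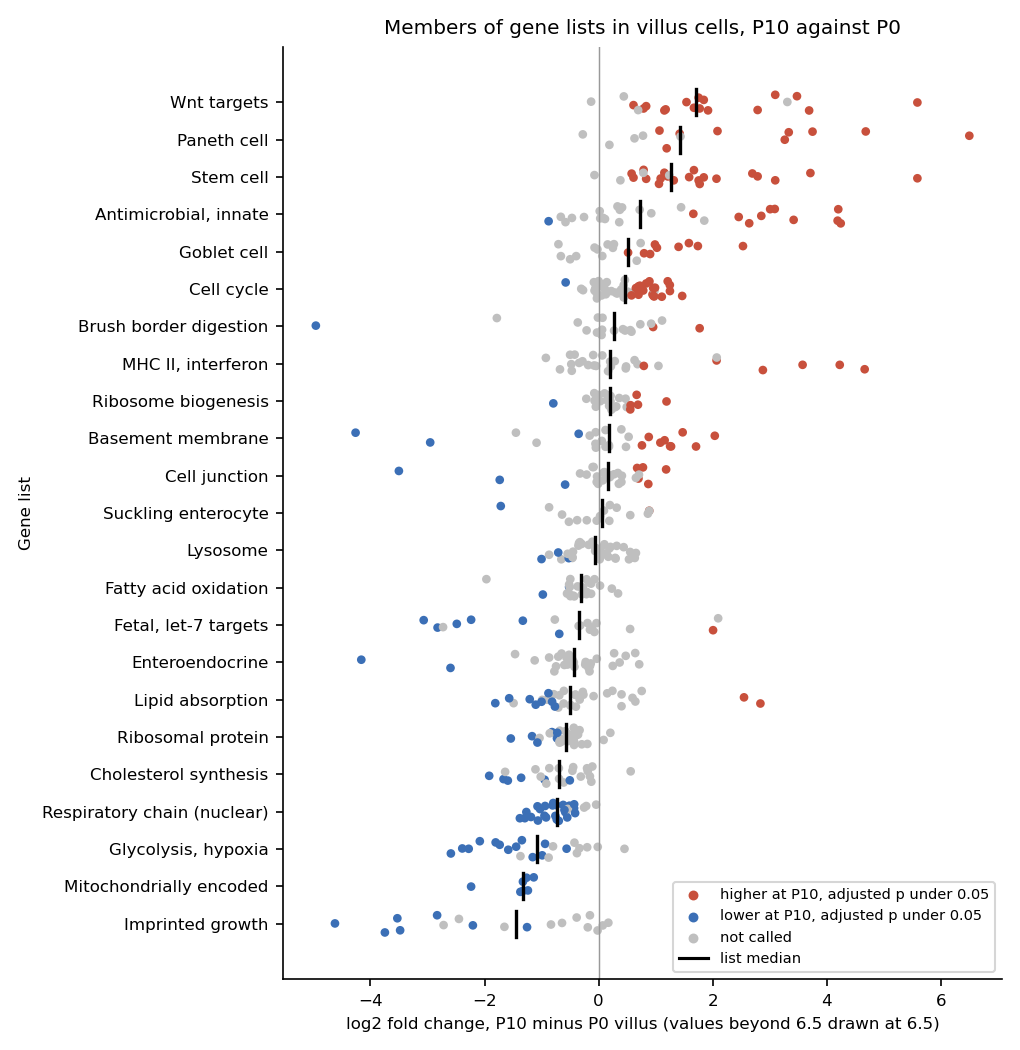
Each point is a gene of a list, placed at its log2 fold change from P0 to P10 villus; red points were called higher, blue points lower and grey points not called, and the black bar is the list median. The Wnt target, Paneth and stem cell lists have medians above 1 and the imprinted, mitochondrially encoded and glycolysis lists medians below -1; 1 Paneth gene beyond the axis is drawn at 6.5.

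Antimicrobial and innate defence genes rose in 10 of 27 cases (37%) and fell in 1 (3.7%), beside 10.5% and 11% of all genes. The median was 0.72. Without P0 villus 1, 9 of 26 rose and 2 fell, beside 20.2% and 16.2% of all genes. Pigr, the receptor that carries IgA across the epithelium, was at 250.3, 265 and 371.2 CPM at P0 and 1035, 1178 and 590.7 CPM at P10 (1.66 ± 0.29, edgeR adjusted p = 0.000784). Duox2, a hydrogen peroxide-producing oxidase, rose by 3.42 ± 0.66 from under 1 CPM, and Lcn2, an iron-sequestering protein, by 4.202 ± 0.961. Lcn2 was near the detection limit, at 0.0615, 0.0851 and 0 CPM at P0 and 0.591, 1.68 and 0.668 CPM at P10. The C-type lectins Reg3b and Reg3g, which kill or repel bacteria, were each higher in every P10 library than in any P0 library. Reg3b measured 17.5, 5.24 and 26.8 CPM against 502, 207.2 and 230.4 CPM (4.25 ± 1.32, edgeR adjusted p = 0.0297). Without P0 villus 1 its log2 change was 4.29 and the adjusted p 0.0567, and the call was also lost without P0 villus 2, P0 villus 3, P10 villus 1 or P10 villus 2, with adjusted p-values from 0.0505 to 0.12. Reg3g changed by 4.19 ± 1.22 (edgeR adjusted p = 0.0224), with 4.06 and 0.0507 without P0 villus 1, 0.0986 without P0 villus 2 and 0.0561 without P10 villus 1. The Reg3 genes are close paralogs, so their reads may be shared. Lypd8, an abundant protein that keeps bacteria off the villus surface, was not called (0.41 ± 0.17).

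Genes of MHC class II antigen presentation rose from almost no reads. Of the 29 MHC class II and interferon genes tested, 6 (20.7%) rose and 0 fell, beside 10.5% and 11% of all genes. Without P0 villus 1, 7 rose and 1 fell, beside 20.2% and 16.2% of all genes. Ciita, the master activator of MHC class II, had 2 reads in the P0 libraries and 74 at P10, a ratio of 29.7 (exact binomial 95% interval 7.95 to 250.1, counting error only). Cd74, the invariant chain, went from 0.308, 0.0426 and 0.367 CPM to 2.46, 1.28 and 1.74 CPM (2.88 ± 0.67, edgeR adjusted p = 0.00559). H2-Ab1, a class II chain, had 3 reads at P0 and 79 at P10. These levels are low at P10 too, and other antigen-presenting cells would carry the same transcripts. Ptprc, which marks all white blood cells, had 1 read at P0 and 18 at P10, and the part of such cells in the class II change was not tested. The class I genes H2-D1 (-0.08 ± 0.25) and H2-K1 (-0.42 ± 0.40), at 155.9 CPM or more in every library, were not called.

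Several genes of fetal growth fell. H19, an imprinted long noncoding RNA, was at 5830, 16950 and 10730 CPM at P0 and at 242.9, 125.2 and 992 CPM at P10. Every P0 library was above every P10 library, with a spread of several-fold within each age. Its log2 change was -4.62 ± 0.81 (edgeR adjusted p = 0.000856), and -4.93 without P0 villus 1. Igf2, the fetal growth factor encoded beside H19, fell from 970.7, 1629 and 1067 CPM to 119.9, 91.6 and 303.6 CPM (-2.83 ± 0.49, edgeR adjusted p = 0.000761). P10 villus 3 had the highest P10 level of both genes. Its antisense transcript Igf2os fell by 3.28 ± 0.53. The strand setting of the counting is not given in the sources used here, so reads of Igf2 and Igf2os cannot be told apart. Meg3, another imprinted noncoding RNA, fell by 3.75 ± 0.71.

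Across the imprinted list 7 of 18 fell and 0 rose with a median of -1.45, and 7 fell without P0 villus 1. The count was 4 without P0 villus 3, P10 villus 1 or P10 villus 2, and 4 in a fit of the 6 villus libraries alone. Gnas (-0.02 ± 0.13) and Igf2r, the receptor that clears Igf2 (0.17 ± 0.23), were not called. Among 18 fetal and let-7 target genes, 6 fell and 1 rose, with and without P0 villus 1, and leaving out P0 villus 2 or P10 villus 2 left 3 that fell. Igf2bp1, a fetal RNA-binding protein and target of the microRNA let-7, fell from 32.5, 48.6 and 37.6 CPM to 2.40, 4.85 and 6.92 CPM (-3.07 ± 0.65, edgeR adjusted p = 0.00327). Its paralog Igf2bp3 stayed above 200 CPM in all 6 libraries and was not called (-0.35 ± 0.14), but without P0 villus 1 it fell by 0.41 (edgeR adjusted p = 0.0362). Lin28b, which blocks let-7 maturation, had 14 reads at P0 and 2 at P10, a ratio of 0.115 with a counting interval of 0.0127 to 0.50.

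**Figure D4:**
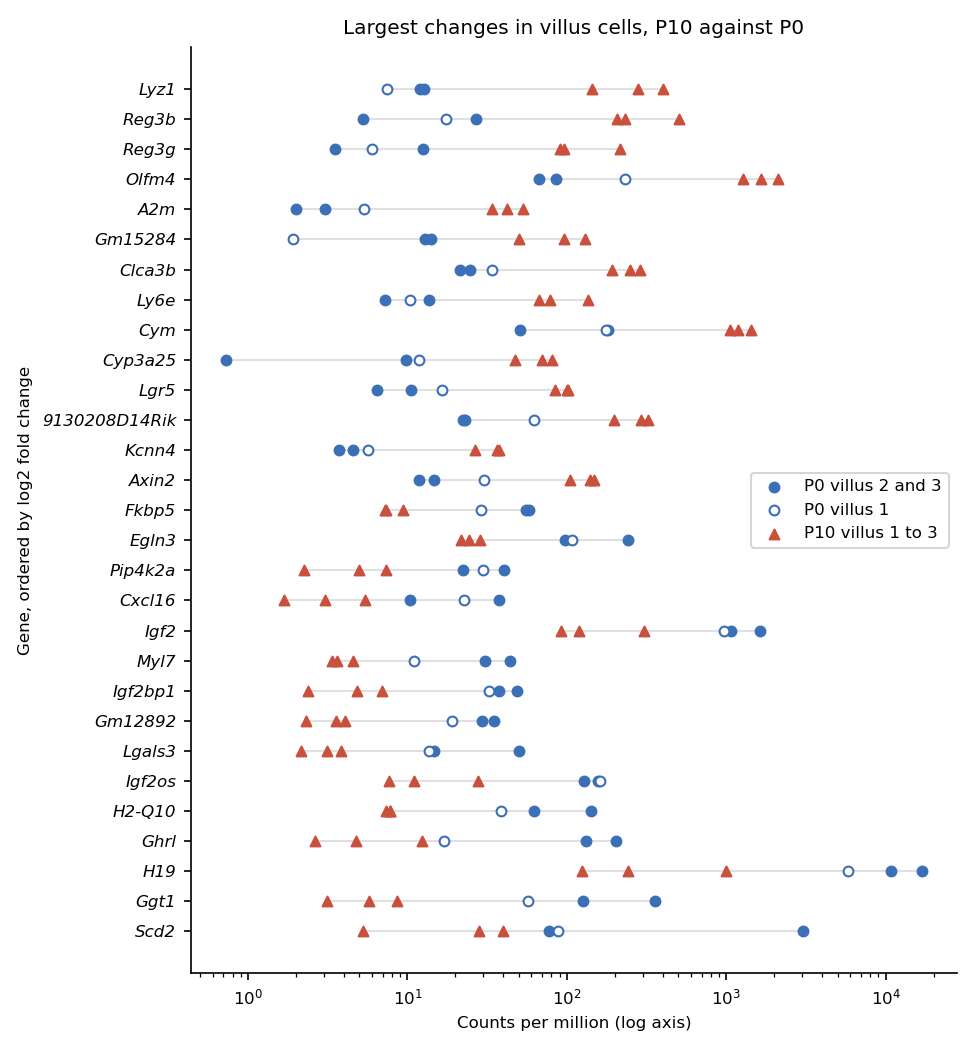
CPM on a log axis in each of the 6 villus libraries for 14 of the 15 genes with the largest rises and the 15 with the largest falls among called genes of at least moderate level whose groups do not overlap. Triangles are P10 libraries, filled circles P0 villus 2 and 3 and open circles P0 villus 1; P0 villus 1 is the lowest P0 library for Lyz1 and Gm15284 and the highest for Olfm4, Lgr5 and Axin2.

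The largest changes also included genes outside these groups. Ggt1, a brush border enzyme that splits glutathione, fell from 56.9, 359.3 and 126.7 CPM to 5.72, 3.15 and 8.65 CPM (-4.96 ± 0.72, edgeR adjusted p = 0.000202). The P0 libraries spread over 6-fold, but none came near the P10 range. Cym, the milk-clotting protease chymosin, measured 175.1, 50.6 and 180.4 CPM at P0 and 1053, 1182 and 1426 CPM at P10 (3.17 ± 0.80, edgeR adjusted p = 0.00962). Its call was lost without P0 villus 2 (2.78, adjusted p = 0.0537). Fkbp5, a co-chaperone induced by glucocorticoids, fell from 28.8, 55.2 and 57.7 CPM to 7.37, 7.21 and 9.36 CPM (-2.56 ± 0.25, edgeR adjusted p = 2.67e-06). Other members of the glucocorticoid and thyroid response list went the other way: Cebpd, a transcription factor, rose by 2.03 ± 0.31 and Hr, a thyroid hormone-responsive corepressor, by 2.34 ± 0.42, and in all 3 rose and 2 fell of 14. These were 21.4% and 14.3%, beside 10.5% and 11% of all genes tested. Without P0 villus 1, 5 rose and 3 fell, beside 20.2% and 16.2% of all genes. The falls numbered 1 on leaving out P0 villus 2 or any 1 of the P10 libraries. Cyp3a25 and Cyp3a11, cytochromes that oxidise drugs and steroids, rose by 3.14 ± 0.75 and 4.18 ± 0.77, within a xenobiotic metabolism list in which 5 of 30 rose and 7 fell. These were 16.7% and 23.3%, beside 10.5% and 11% of all genes tested. Without P0 villus 1, 9 rose and 8 fell, in a fit that called 20.2% of all genes higher and 16.2% lower. The rises numbered 3 without P10 villus 3, and the falls 4 without P0 villus 2 or P10 villus 2 and 3 without P10 villus 1.

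Digestive enzymes of the enterocyte brush border were for the most part not called. Of 19 tested, 2 (10.5%) rose and 1 (Ggt1, 5.26%) fell, beside 10.5% and 11% of all genes tested. The share that rose was thus that of all genes. Without P0 villus 1, 6 rose and 1 fell, in a fit that called 20.2% of all genes higher and 16.2% lower. The rises numbered 4 without P10 villus 1, 0 without P0 villus 3 and 1 on leaving out any other single library. Lct, the lactase that digests milk sugar, was at 2872, 2027 and 1795 CPM at P0 and at 2094, 3354 and 4387 CPM at P10. The groups overlapped, and the change of 0.56 ± 0.42 was not called (edgeR adjusted p = 0.353). Sis, the sucrase-isomaltase of the weaned gut, was at 5.44, 10.7 and 6.81 CPM and then at 14.2, 16.5 and 18.7 CPM, which did not pass the test either (1.11 ± 0.42, edgeR adjusted p = 0.0606). Both ages were far below the lactase level. Naaladl1, a peptidase, rose by 1.77 ± 0.49, with 574.2 to 619.8 CPM at P10, and its call was lost without P0 villus 3 (1.57, adjusted p = 0.0762).

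Genes of the suckling program showed 1 rise and 1 fall among 16 (6.25% each), beside 10.5% and 11% of all genes tested. Without P0 villus 1 there were 3 rises and 2 falls, in a fit that called 20.2% of all genes higher and 16.2% lower. The rises numbered 2 without P10 villus 1. Prdm1, the repressor that maintains the suckling enterocyte, rose from 126.6, 89.1 and 78.0 CPM to 152.7, 193.8 and 197 CPM (0.89 ± 0.19, edgeR adjusted p = 0.00342). Its P10 libraries were above all P0 libraries. Ass1, an enzyme of arginine synthesis, fell by 1.72 ± 0.58, with P0 villus 2 (745.4 CPM) well above the other libraries, and the call was lost without it (-0.84, adjusted p = 0.348), as well as without P0 villus 3 (-1.96, adjusted p = 0.0515), P10 villus 1 (-1.55, adjusted p = 0.118) or P10 villus 2 (-1.59, adjusted p = 0.136). Cps1, the first enzyme of that pathway, was not called with all libraries (0.20 ± 0.26) and rose by 0.73 without P0 villus 1 (edgeR adjusted p = 0.00569). Fcgrt, the receptor that takes up maternal antibody, was at 2200 to 2763 CPM in all 6 libraries and did not pass the test (0.03 ± 0.53). Vdr, the vitamin D receptor, rose by 1.31 ± 0.22, from 51.3 to 59.4 CPM at P0 to 90.8 to 168.6 CPM at P10 (edgeR adjusted p = 0.000556).

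Fatty acid carriers were among the lipid absorption genes that fell. Of 34 lipid absorption genes, 8 fell and 2 rose, with a median of -0.49, and without P0 villus 1 8 fell and 3 rose. The count of falls was 5 without P0 villus 2 or P10 villus 3, 3 without P0 villus 3 or P10 villus 1, and 4 without P10 villus 2. Fabp1, a cytosolic fatty acid carrier, fell from 3219, 5512 and 5455 CPM to 1683, 1174 and 1184 CPM (-1.81 ± 0.44, edgeR adjusted p = 0.00716). Fabp2, its intestinal paralog, fell from 5818, 6989 and 6970 CPM to 2150, 1996 and 2525 CPM (-1.57 ± 0.36, edgeR adjusted p = 0.00553). All P0 libraries were above all P10 libraries for both carriers. Apoa4, a chylomicron apolipoprotein and 1 of the most abundant transcripts, measured 18990 to 23130 CPM at P0 and 18000 to 23110 CPM at P10 and was not called (-0.09 ± 0.54). The rises were in Abca1, a cholesterol exporter (2.84 ± 0.62), and Pnliprp2, a lipase of milk fat digestion (2.55 ± 0.34). Ketogenesis and fatty acid oxidation showed 2 falls (8%) and 0 rises among 25, beside 11% and 10.5% of all genes tested. There were 2 falls without P0 villus 1, 5 without P0 villus 2 and 1 without P10 villus 1 or P10 villus 2.

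Genes of glycolysis and the hypoxia response were lower at P10. Of 22 tested, 13 fell and 0 rose, with a median of -1.07, and without P0 villus 1 14 fell. The count was 6, with 1 rise, without P0 villus 2, which had the highest summed level of the list: 8450 CPM, against 3031 and 3835 CPM in P0 villus 1 and 3 and 1889 to 2018 CPM at P10. A fit of the 6 villus libraries alone called 6. Egln3, an oxygen sensor that is itself induced by hypoxia, fell from 107.7, 242.8 and 97.0 CPM to 24.3, 21.7 and 28.4 CPM (-2.59 ± 0.40, edgeR adjusted p = 0.000282). The P10 libraries were tightly grouped below all P0 libraries. The glycolytic enzymes Eno1 and Pgk1 fell by 2.39 ± 0.44 and 2.08 ± 0.29. Their levels are uncertain, as both have processed copies in the genome and reads with more than 1 alignment carry no count in the files. Ndrg1, a hypoxia-induced gene, measured 465.5, 3007 and 712.9 CPM and then 233.7, 270.9 and 358.5 CPM (-2.28 ± 0.52), and its call was lost without P0 villus 2 (-1.03, adjusted p = 0.073). Vegfa, the angiogenic factor, was not called (-0.80 ± 0.34).

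The promoters of 3 of these genes are shown because members of the list moved together and the factor HIF binds a short core. The windows run from 250 bases before to 50 bases after the RefSeq start on GRCm38.p6, 5′ to 3′ on the gene's strand. Capitals mark the core ACGTG or GCGTG or their reverse complements CACGT and CACGC; the core overlaps the E-box CACGTG. Egln3 lies on the minus strand at chr12:54203825-54204124, Eno1 on the plus strand at chr4:150236458-150236757 and Pgk1 on the plus strand at chrX:106186850-106187149.
Egln3: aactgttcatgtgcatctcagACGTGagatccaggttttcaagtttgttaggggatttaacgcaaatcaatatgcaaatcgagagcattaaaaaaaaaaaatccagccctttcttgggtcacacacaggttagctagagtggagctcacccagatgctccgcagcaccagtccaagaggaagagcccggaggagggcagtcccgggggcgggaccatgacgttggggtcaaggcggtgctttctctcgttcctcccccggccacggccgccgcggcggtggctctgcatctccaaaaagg
Eno1: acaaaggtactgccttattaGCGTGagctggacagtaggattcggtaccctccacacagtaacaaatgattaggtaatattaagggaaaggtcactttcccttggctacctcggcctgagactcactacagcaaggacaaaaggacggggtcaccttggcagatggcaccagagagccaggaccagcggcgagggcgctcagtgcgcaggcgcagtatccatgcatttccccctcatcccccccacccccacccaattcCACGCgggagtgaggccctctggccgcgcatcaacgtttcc
Pgk1: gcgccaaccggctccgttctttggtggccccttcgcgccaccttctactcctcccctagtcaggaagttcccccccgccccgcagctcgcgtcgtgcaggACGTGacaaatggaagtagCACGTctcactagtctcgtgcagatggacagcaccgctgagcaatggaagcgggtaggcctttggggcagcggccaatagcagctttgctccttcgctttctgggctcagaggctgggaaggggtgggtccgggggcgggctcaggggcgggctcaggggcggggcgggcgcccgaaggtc
The Egln3 window held 1 match, and the Eno1 and Pgk1 windows 2 each. Windows were found for 21 of the 22 genes, and 15 held the core, as did 8 of the 12 called genes with a window, beside 43.8% of 27025 RefSeq promoters of the same length. The share among called genes was thus not above that of the list. For the Wnt target list, the TCF/LEF core was searched on both strands as CTTTGAA or CTTTGAT or CTTTGTA or CTTTGTT. It was in 1 of 9 called genes with a window (Sp5), beside 16.9% of all promoters. For the cholesterol synthesis list, the sterol response element core TCACNCCAC (N is any base) was in 0 of 5 called genes with a window. It was in 1.22% of all promoters. A match is a sequence description and no evidence of binding.

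Respiratory chain genes fell too. Of 29 nuclear-encoded subunits, 25 fell and 0 rose, with a median of -0.73, and 23 fell without P0 villus 1. The count was 16 without P0 villus 3 and 10 in a fit of the 6 villus libraries alone. Cox7a2, a subunit of cytochrome c oxidase, went from 251.9, 315.5 and 347.2 CPM to 135.6, 129.9 and 114.5 CPM (-1.27 ± 0.17, edgeR adjusted p = 7.51e-05). Its groups did not overlap. Sdha, the catalytic subunit of complex II, was not called (-0.04 ± 0.16). All 7 mitochondrially encoded genes tested fell, with a median of -1.32, and this count was 7 whichever 1 of the 6 libraries was left out, but 0 in a fit of the 6 villus libraries alone. The other 6 listed mitochondrial genes are at 0 in all 6 libraries. mt-Nd1, a complex I subunit, was at 10710, 16780 and 24570 CPM at P0 and 8100, 5395 and 6624 CPM at P10 (-1.37 ± 0.28, edgeR adjusted p = 0.00243). P0 villus 1 was the lowest of the P0 libraries. Mitochondrially encoded genes took 5.14% of its raw counts and 5.18% of those of P10 villus 1, so the ages overlapped before TMM scaling. With scaling by library size alone, all 7 were still called lower.

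Ribosomal protein genes were lower in part. Of 30 tested, 6 fell and 0 rose, with a median of -0.57, and without P0 villus 1 16 fell. The count was 0 without P0 villus 3, 2 without P10 villus 2 and 0 in a fit of the 6 villus libraries alone. Of all genes, these fits called 996, 869 and 355 lower, beside 1816 with all libraries. The list summed to 7226 CPM in P0 villus 1, 12380 and 13280 CPM in P0 villus 2 and 3 and 5962 to 8869 CPM at P10, so P0 villus 1 lay in the P10 range. Many ribosomal protein genes have processed copies, and their single-gene levels are uncertain.

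**Figure D5:**
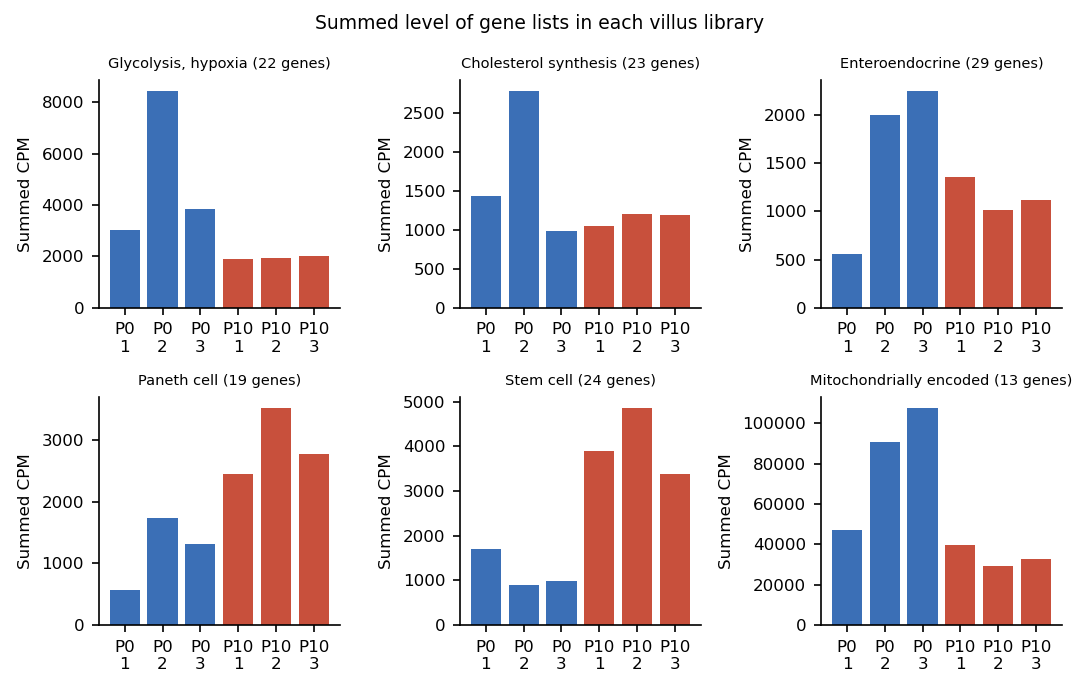
Summed CPM of 6 gene lists in each villus library, P0 in blue and P10 in red; bars start at 0. P0 villus 2 has the highest glycolysis and cholesterol synthesis sums, and P0 villus 1 has the lowest enteroendocrine and Paneth sums.

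Cholesterol synthesis rested on 1 library. Of 23 genes, 6 fell and 0 rose, with a median of -0.69, and without P0 villus 1 12 fell. Without P0 villus 2, 0 fell and the median was -0.09; without P0 villus 3, 13 fell; and without P10 villus 1, 2 or 3 the counts were 3, 2 and 1. The summed level was 2780 CPM in P0 villus 2, 1434 and 980.5 CPM in P0 villus 1 and 3, and 1046 to 1202 CPM at P10, so P0 villus 3 was below all P10 libraries. Mvd, an enzyme of the mevalonate pathway, measured 12.5, 105 and 22.1 CPM at P0 and 14.6 to 16.3 CPM at P10. Its fall of 1.59 ± 0.56 dropped to -0.16 without P0 villus 2 (adjusted p = 0.829), and the call was also lost on leaving out any 1 of the P10 libraries (adjusted p = 0.0959 to 0.125). Scd2, a fatty acid desaturase, was at 88.5, 3016 and 76.8 CPM at P0 and 28.02, 5.27 and 39.8 CPM at P10 (-5.45 ± 1.45, edgeR adjusted p = 0.014). Without P0 villus 2 its change was -1.77 (adjusted p = 0.273), and without P10 villus 2 -4.97 (adjusted p = 0.0626).

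Of 26 genes of the hemidesmosome and basement membrane, 9 (34.6%) rose and 3 (11.5%) fell, beside 10.5% and 11% of all genes tested, and without P0 villus 1 12 rose and 3 fell. The rises numbered 4 without P0 villus 2, 5 without P0 villus 3 or P10 villus 2, and 2 in a fit of the 6 villus libraries alone. Lama3, a chain of the epithelial laminin, rose from 17.2, 11.1 and 8.73 CPM to 34.7, 42.5 and 75.5 CPM (2.04 ± 0.39, edgeR adjusted p = 0.0015). Col4a1, a basement membrane collagen, fell from 2.74, 6.13 and 2.53 CPM to 0.0622, 0.131 and 0.401 CPM (-4.26 ± 0.88, edgeR adjusted p = 0.00256). The groups were separate for each. Among 27 junction genes, 5 (18.5%) rose and 3 (11.1%) fell, so the share that fell was near that of all genes in both lists, and without P0 villus 1 10 rose and 3 fell. The rises numbered 2 without P0 villus 2 or P10 villus 2, 1 without P0 villus 3 and 3 without P10 villus 3. The tight junction claudins Cldn4 (-1.73 ± 0.29) and Cldn1 (-3.50 ± 0.81) fell. Of 36 intestinal transcription factors, 6 (16.7%) rose and 0 fell, beside 10.5% and 11% of all genes. Without P0 villus 1, 11 rose and 1 fell, beside 20.2% and 16.2% of all genes. Hnf4a, a master regulator of enterocytes, was not called (0.06 ± 0.15).

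Vil1, the actin bundler of the enterocyte brush border, was at 1175 to 1516 CPM at P0 and 1385 to 1624 CPM at P10. Epcam, the epithelial protein the cells were sorted for, was at 874.8 to 1225 and 1341 to 1497 CPM. Its log2 change of 0.52 ± 0.14 was called (edgeR adjusted p = 0.015), a call lost without P0 villus 2 (0.43, adjusted p = 0.0702), P0 villus 3 (0.44, adjusted p = 0.0759) or P10 villus 2 (0.48, adjusted p = 0.0653). Markers of other cell types were low apart from Csf1r, Ret and Ctrb1. The 26 immune markers summed to 89.4 to 119.6 CPM at P0 and 29.5 to 45.7 CPM at P10, of which Csf1r, a macrophage growth factor receptor, made up 84.2 to 112.5 and 15.7 to 37.5 CPM. Csf1r changed by -2.08 ± 0.60 (edgeR adjusted p = 0.0205), a call lost without P0 villus 2 (-2.05, adjusted p = 0.0563), P0 villus 3 (-1.998, adjusted p = 0.0588), P10 villus 1 (-1.86, adjusted p = 0.0733) or P10 villus 2 (-1.92, adjusted p = 0.0841). The macrophage marker Adgre1 was at 0 in all 6 libraries. Of 15 immune markers tested, 3 (20%) rose and 1 (6.67%) fell, beside 10.5% and 11% of all genes. Gzmb, the granzyme of cytotoxic lymphocytes, had 0 reads at P0 and 21 at P10. This was at least 5.63-fold higher against a floor of 3 reads over the group. The 20 mesenchyme markers summed to 10.3 to 21.1 CPM at P0 and 14.3 to 23.8 CPM at P10, the 12 endothelial markers to 9.69 to 12.5 and 7.15 to 8.52 CPM, and the 10 erythroid markers to 2.60 to 5.50 and 0.787 to 1.74 CPM. The 12 enteric neuron and glia markers summed to 43.9 to 55.7 and 56.7 to 94.4 CPM, mostly Ret. The 16 pancreas markers summed to 77.3 to 92.7 and 128.2 to 295.4 CPM, mostly Ctrb1, while Prss1, Try4, Pnlip and Amy2a5 were at 0 in all 6. Ctrb1 was at 61.6 to 75.3 CPM at P0 and 123.6 to 291.7 CPM at P10, and its log2 change of 1.51 was called. That call was lost without P0 villus 2 (edgeR adjusted p = 0.0659), P0 villus 3 (0.0556) or P10 villus 2 (0.103). Of these 6 libraries, only P0 villus 3 had reads of the acinar enzyme genes Cpa1 (24 reads), Amy2b (20), Cpb1 (19), Try5 (17), Prss2 (15) and Cela2a (11). The insulin genes Ins1 and Ins2 had 109 and 145 reads at P0. They were at 4.44 and 5.83 CPM in P0 villus 3 and at most 0.0426 CPM in any other of the 6.

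The change in the villus fraction was set against that in the crypt fraction, which shares no library with it. In crypt cells 1194 genes (7.22%) were higher and 1635 (9.89%) lower at P10. In a direct test of the difference between the changes, edgeR called 0 of 16535 genes, with 1157 at an unadjusted p under 0.05 and a smallest adjusted p of 0.208. DESeq2 called 9 and limma-voom 0. These tests treat same-numbered crypt and villus libraries of an age as unpaired, and the labels state no pairing. Pla2g2a at P10 followed the same order in both fractions, at 95.4, 5.23 and 4.90 CPM in crypt 1 to 3. In P10 villus 1 to 3 it was at 120.9, 9.67 and 4.31 CPM. Gip at P0 did not, at 975.5, 344.1 and 240 CPM in crypt and 12.7, 71.2 and 61.5 CPM in villus. Whether same-numbered libraries share animals was not tested. With a replicate block within age, edgeR called 166, of which 157 had the more positive change in villus. Without P0 villus 1 and without the block it called 1076, of which 840 had the more positive change in villus. The result of 0 calls thus turns on that library and on the block, and without P10 villus 1 edgeR called 1. The gene groups below are therefore set side by side only. Brush border digestion genes numbered 0 higher and 10 lower in crypt (median -1.36) against 2 and 1 in villus (median 0.27). Lipid absorption genes numbered 1 higher and 26 lower in crypt (median -1.33) against 2 and 8 in villus. Stem cell genes rose in 15 of 24 cases in crypt and Paneth cell genes in 12 of 14, with medians of 0.94 and 3.35. Lct changed by -1.31 ± 0.42 in crypt and 0.56 ± 0.42 in villus, and the difference of 1.86 did not pass the test (edgeR adjusted p = 0.61). Fabp1 fell in crypt by 3.24 ± 0.46 and in villus by 1.81 ± 0.44. Lyz1 rose by 5.43 ± 0.49 in crypt, to 239 ± 27.1 CPM at P10, beside 274.7 ± 127.9 CPM in villus (SD, n = 3 each), and the libraries of the fractions overlapped at that age. The difference between its changes was not called either (-0.75 ± 0.58, edgeR adjusted p = 0.747).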

How the data were processed

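RNA-seq was done on poly(A) RNA with a stranded kit, per the labels' protocols. Per the submitters' processing notes, Trim Galore, STAR and HTSeq were used with the mm9 build; versions and the strand setting are not given in the sources used here. The authors deposited raw counts of reads per gene, 1 file for each of 23 libraries, with 47593 genes and 5 summary lines, which were left out. In the 6 villus libraries reads outside genes came to 8.87% to 13.5% of all counts, those in genes plus the 5 summary lines.

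Counts were tested in edgeR 4.0.16 (R 4.3.3) with TMM factors, filterByExpr (minimum count 10), robust quasi-likelihood fits with 1 coefficient per group over all 23 libraries (15 residual degrees of freedom), and Benjamini-Hochberg adjustment over 16535 genes; the threshold was 0.05. The script was tested on simulated data. CPM uses TMM-scaled library sizes. DESeq2 1.42.0 and limma 3.58.1 (voom) were alternatives. With 3 libraries against 3, an exact permutation test of 1 gene could not go below p = 0.1.

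The members and the 47 gene lists were chosen with earlier results of these data known. Named genes were the 15 largest called changes each way (mean log2 CPM of at least 3, prior count 2, groups not overlapping), up to 4 called and 2 uncalled members per list, and a fixed set; some of these genes are not reported here. Counts per list use all members tested, and members named only from low reads are given as reads. RefSeq promoters were matched by symbol. The alternative with a 2-fold threshold and that with GC and length offsets were chosen after seeing the data.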

Additional observations from a re-analysis of the deposited data

How the results depend on the processing

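No main call in the villus comparison turned to a call in the opposite direction under any of the 18 alternatives run. Against 3558 calls (1742 higher, 1816 lower), a fit of the 6 villus libraries alone gave 828 (473 and 355) and a test against a 2-fold change 244 (157 and 87). Library size scaling gave 3192 higher and 860 lower, and no filter on low counts 1014 lower. Leaving out 1 of the 6 libraries gave 1771 to 6011 calls, 887 to 3330 of them higher and 869 to 2681 lower; the highest of each came without P0 villus 1. The causes were not tested. Of the 161 called named genes, 95 were called whichever of the 6 was left out.

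The difference between villus and crypt, 0 calls, became 2 with no filter, 9 with DESeq2 and 166 with a replicate block within age, and ranged from 0 to 1076 when 1 library was left out.

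Replicate numbers did not pair P0 with P10 villus libraries: deviations of same-numbered libraries correlated at -0.324, -0.0813 and -0.188. A replicate block over all libraries gave 3285 calls in the villus comparison. Pairing of same-numbered crypt and villus libraries within an age was not measured by these correlations, and the main test of the difference leaves it out. Depth limits the tuft, MHC class II and immune genes, which had few reads per group.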
